A study of Mus musculus with 8 samples.

Results

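Insulin-like growth factor (IGF) signalling was followed through 10 genes in granulosa cells of mice lacking the progesterone receptor isoform PGR-A: the ligand Igf1, the receptors Igf1r, Igf2r and Insr, the binding proteins Igfbp2, Igfbp4 and Igfbp5, the protease Pappa, and the receptor substrates Irs1 and Irs2. The genes were picked by symbol, and all 10 were found among the 51886 symbols of the deposited table. The data are 4 libraries from PGR-A KO mice and 4 from WT mice, labelled as the same PRAKO set. In both groups the mice were 21 to 27 days old and received 5 IU eCG, a hormone that stimulates follicle growth, and after 46 h 5 IU hCG, which triggers the ovulatory response. Granulosa cells, the somatic cells that line the follicle, were collected 8 h after hCG, and each library pooled the cells of 2 to 3 mice. P-values therefore measure the spread between pools. The labels do not describe how the allele was made.

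IGF1 acts through IGF1R, a receptor tyrosine kinase closely related to the insulin receptor INSR, with which it can form hybrid receptors. Activated receptors phosphorylate the docking proteins IRS1 and IRS2, which recruit PI3K and so activate AKT. IGFBPs bind IGFs with high affinity and hold them from the receptor, and the metalloproteinase PAPP-A releases IGF by cleaving IGFBP4 and IGFBP5. In the mouse ovary granulosa cells of growing follicles make IGF1, which enhances the response to FSH.

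Levels are in TPM, a share of all transcripts corrected for transcript length that sums to between 994519 and 997022 in each library and holds no sequencing depth. Granulosa markers were abundant, with 8 markers summing to 4334 to 5988 TPM in PGR-A KO and 4991 to 6877 TPM in WT. Pgr itself, the targeted gene, stood at 3.21, 3.52, 2.01 and 3.08 TPM in PGR-A KO and at 1.56, 0.878, 1.41 and 0.756 TPM in WT, a sum over its isoforms that does not check the loss of PGR-A. The libraries did not order by genotype in the ovulatory response. The mean of 12 ovulatory genes lay 0.37 to 0.74 above its 8-library mean (log2 scale) in 3 PGR-A KO libraries (replicates 1, 2 and 4) and in WT replicate 1. It lay below that mean in the others, at -0.61 in PGR-A KO replicate 3 and between -0.63 and -0.19 in WT replicates 2, 3 and 4. Results are therefore also given with PGR-A KO replicate 3 plus WT replicate 1 set aside, a pair chosen for its values. All p-values and counts without that pair are descriptions and no measure of genotype.

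No difference between PGR-A KO and WT exceeded the spread of the libraries for any of the 10 genes, from the ligand to the substrates. With limma on log2(TPM + 1), 0 of 10 passed an adjusted p of 0.05, in a fit where 2 of 14472 genes did (0.0138%). At an unadjusted p under 0.05 there were also 0 of 10, against 913 genes in all (6.31%). There were 3 with array weights (Igfbp2, Irs1 and Irs2), 1 without WT replicate 1 (Irs1) and 3 with PGR-A KO replicate 3 plus WT replicate 1 set aside (Pappa, Irs1 and Irs2). For these alternative fits the share over all genes was not computed, so their counts cannot be set against 6.31%. The ranges of the PGR-A KO and WT libraries overlapped for each of the 10, while they did not overlap in 3.42% of tested genes. Means on the log2 scale were lower in PGR-A KO for 7 of the 10 genes, against 57.4% of all tested genes, and for 6 with TMM factors or quantile normalization. The median log2 difference of the 10 was -0.081, beside -0.023 over all tested genes. With PGR-A KO replicate 3 plus WT replicate 1 set aside, the protease gene Pappa passed, 1 of 10 genes, where 8.01% of 14114 genes did and 3.84% did so with higher and 4.17% with lower levels in PGR-A KO.

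**Figure D1:**
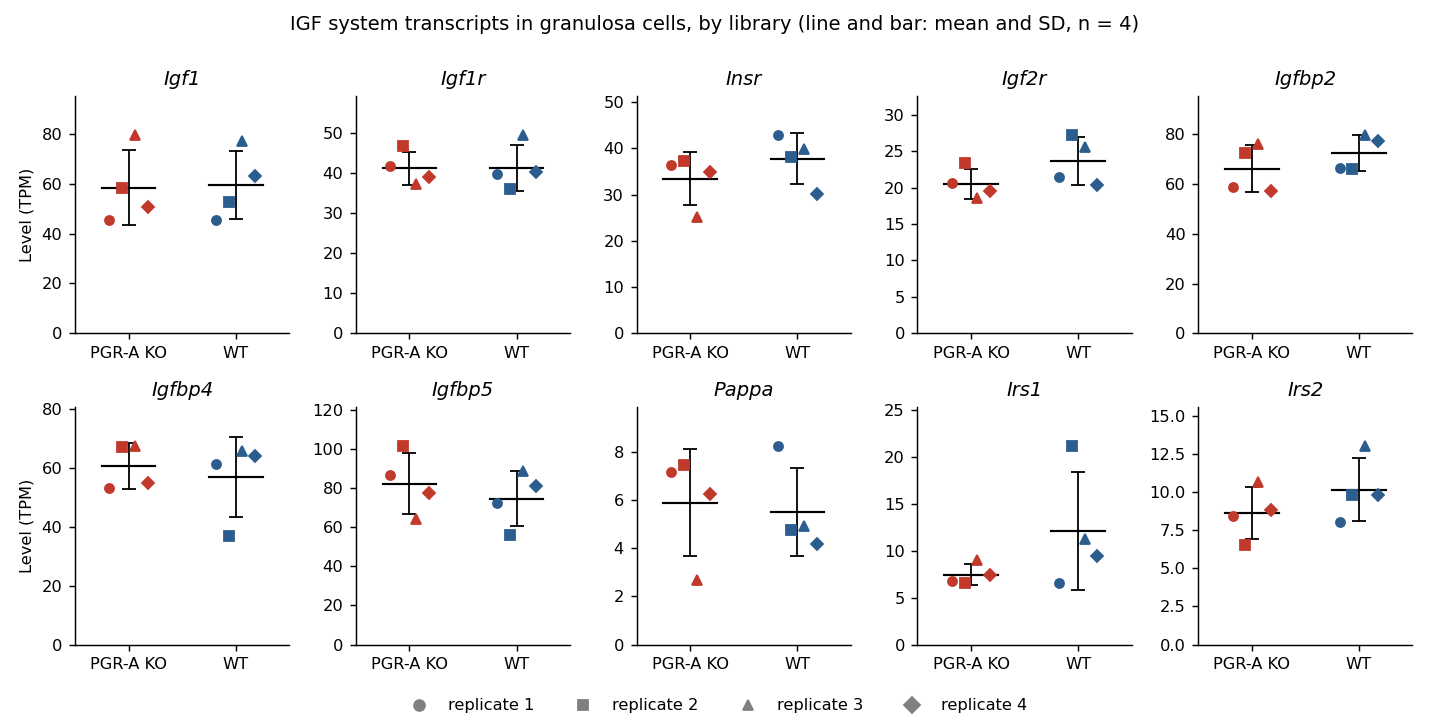
Level in TPM (y axis, from 0) of each of the 10 genes in the PGR-A KO (red, left) and WT (blue, right) libraries; symbols mark the replicate number, and line and bar give the mean and SD (n = 4). The 2 groups overlap in every panel, Irs1 stands at 21.2 TPM in WT replicate 2 and Pappa at 2.67 TPM in PGR-A KO replicate 3.

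RefSeq promoter windows, 250 bases before to 50 after a transcript start on GRCm38.p6, were found for 8 of the 10 members, and those of Igf1, Igfbp4 and Irs1 are printed because these genes are the ligand, the PAPP-A substrate with the library that stood apart and the member with the largest log2 difference. They were searched on both strands for GTAAACA (FOXO element), TGTTCT (the hexamer bound by progesterone and glucocorticoid receptors), TGACG (core of the cAMP response element), GGGCGG (GC box) and, for the TATA box, the letters TATAAA, shown in capitals. None of these motifs is contained in another.
Igf1, chr10:87860861-87861160, plus strand: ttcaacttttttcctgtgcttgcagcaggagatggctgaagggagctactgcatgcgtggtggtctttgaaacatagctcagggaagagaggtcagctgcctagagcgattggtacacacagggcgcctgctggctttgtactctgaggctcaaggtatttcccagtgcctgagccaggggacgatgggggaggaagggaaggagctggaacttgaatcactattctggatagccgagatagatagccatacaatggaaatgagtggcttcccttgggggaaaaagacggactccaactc
Igfbp4, chr11:99040994-99041293, plus strand: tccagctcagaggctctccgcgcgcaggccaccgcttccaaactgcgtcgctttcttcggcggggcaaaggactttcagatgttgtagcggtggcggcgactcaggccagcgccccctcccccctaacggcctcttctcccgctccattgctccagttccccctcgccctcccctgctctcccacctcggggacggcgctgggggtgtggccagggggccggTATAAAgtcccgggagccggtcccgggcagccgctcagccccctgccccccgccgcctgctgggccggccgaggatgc
Irs1, chr1:82291390-82291689, minus strand: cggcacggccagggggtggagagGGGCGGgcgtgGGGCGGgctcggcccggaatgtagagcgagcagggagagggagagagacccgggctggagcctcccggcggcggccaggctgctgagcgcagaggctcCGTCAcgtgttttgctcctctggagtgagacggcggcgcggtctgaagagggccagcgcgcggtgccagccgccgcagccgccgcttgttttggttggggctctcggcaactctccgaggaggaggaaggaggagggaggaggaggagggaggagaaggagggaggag
The Igf1 window held none of the 5 motifs. It lies inside the gene, whose GENCODE annotation starts at 87858265, and the bases before that start were not searched. The Igfbp4 window held a TATA box that starts 28 bases before the transcript start, at -28. The Irs1 window held GC boxes at -227 and -216 and the cAMP element core, on the opposite strand, at -118. Among 32851 windows of this length, 3.65% held the FOXO element, 18.97% the hexamer, 20.8% the cAMP core, 35.7% a GC box and 13.6% a TATA box. A match is a description of letters and not of binding.

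The ligand gene Igf1 (chromosome 10, 87858265 to 87937042, plus strand, mm10) was expressed at the level of its binding proteins in both genotypes. Igf1 had 45.3, 58.1, 79.5 and 50.9 TPM in PGR-A KO replicates 1 to 4, against 45.3, 52.7, 77.0 and 62.9 TPM in WT replicates 1 to 4. Its highest PGR-A KO and highest WT libraries, both numbered 3, lay close together, and so did the lowest of each group, both numbered 1. Igf1 averaged 58.5 ± 15.0 TPM in PGR-A KO and 59.5 ± 13.7 TPM in WT (SD, n = 4 each). The log2 difference was -0.029 (SE 0.20, 95% interval -0.48 to 0.42, limma adjusted p = 0.985), and it changed sign with single libraries left out. The spread within groups was 0.33 on the log2 scale for Igf1, beside a median of 0.16 over all tested genes. The GENCODE annotation places the antisense gene Igf1os across the start of Igf1. Igf1os had a mean of 1.23 TPM over the 8 libraries, and whether counting used the strand is not given in the sources used here.

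The genes whose pattern over the 8 libraries was most like that of Igf1 were Zc3h6, Pak6, Mras, Sel1l3 and Amhr2. Likeness was the root mean square difference in log2(TPM + 1) after each gene was centred on its own mean, over 10292 genes with a mean of at least 5 TPM. It was 0.049 for Zc3h6, 0.060 for the kinase gene Pak6, 0.061 for the small GTPase gene Mras, 0.061 for Sel1l3 and 0.071 for Amhr2, where Igf1 itself deviated by 0.29. Amhr2, the type 2 receptor of anti-Müllerian hormone, had 95.5, 115, 151 and 97.8 TPM in PGR-A KO and 98.8, 97.6, 153 and 122 TPM in WT. Like Igf1 it was highest in the replicates numbered 3 of both genotypes, a likeness for which it was picked. Among the other 9 members Igfbp2 came nearest to Igf1, with a difference of 0.18, and Pappa was farthest at 0.67.

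**Figure D2:**
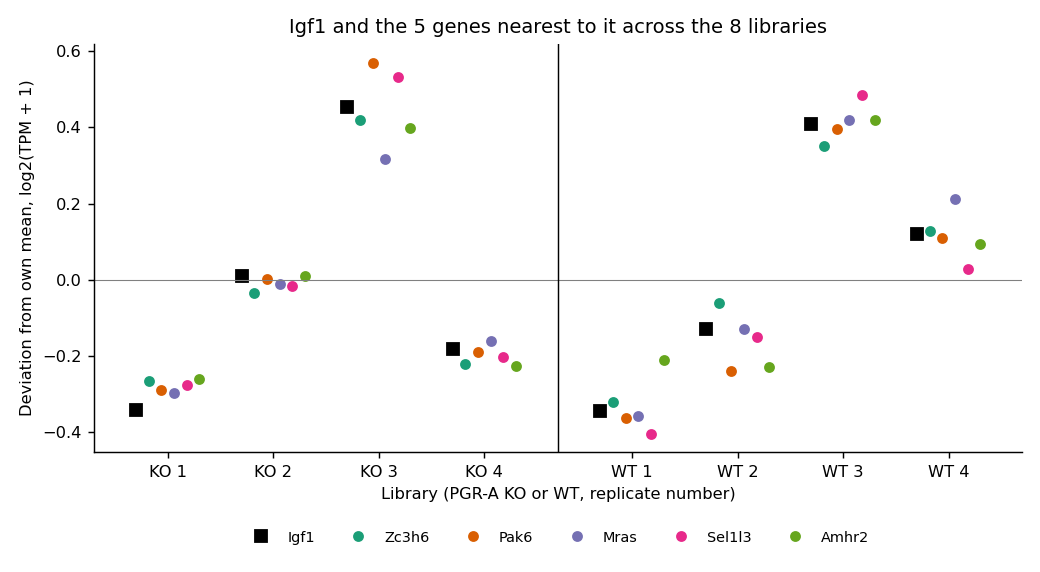
Deviation of log2(TPM + 1) from each gene's own mean (y axis) in the 4 PGR-A KO libraries (left of the line) and 4 WT libraries (right); black squares are Igf1, coloured points the 5 genes nearest to it. All 6 genes, of which 5 were picked for their likeness to Igf1, are highest in PGR-A KO replicate 3 and WT replicate 3.

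The receptor genes had overlapping levels in PGR-A KO and WT. Igf1r (chromosome 7, 67952827 to 68233668, plus strand) had 41.9, 46.6, 37.2 and 39.0 TPM in PGR-A KO and 39.8, 35.98, 49.4 and 40.1 TPM in WT. The groups covered nearly the same range, with means of 41.2 ± 4.10 TPM in PGR-A KO and 41.3 ± 5.72 TPM in WT (SD, n = 4 each). The log2 difference of Igf1r was -0.0010 (SE 0.11, 95% interval -0.25 to 0.24, limma adjusted p = 0.999). Insr (chromosome 8, 3122061 to 3279617, minus strand), which encodes the insulin receptor, had 36.5, 37.3, 25.1 and 34.95 TPM in PGR-A KO and 42.8, 38.2, 39.9 and 30.0 TPM in WT. PGR-A KO replicate 3 held the lowest Insr level, and the other PGR-A KO libraries fell inside the WT range. The log2 difference of Insr was -0.17 (SE 0.15, 95% interval -0.51 to 0.16, limma adjusted p = 0.878).

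Igf2r (chromosome 17, 12682406 to 12769664, minus strand) encodes the mannose 6-phosphate receptor, which takes up IGF2 for degradation and has no kinase. Igf2r had 20.7, 23.3, 18.5 and 19.5 TPM in PGR-A KO and 21.4, 27.2, 25.5 and 20.4 TPM in WT. The lowest of the 8 values were in PGR-A KO replicates 3 and 4 and the highest in WT replicates 2 and 3. Its mean was 20.5 ± 2.08 TPM in PGR-A KO and 23.6 ± 3.25 TPM in WT (SD, n = 4 each), a log2 difference of -0.19 (SE 0.11, 95% interval -0.44 to 0.061, limma adjusted p = 0.808). The antisense gene Airn, with a mean of 2.50 TPM, overlaps Igf2r, so with strand handling unstated part of the Igf2r value could be Airn.

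Igf1r exceeded Insr in 6 of the 8 libraries. The ratio of Igf1r to Insr was 1.147, 1.25, 1.48 and 1.12 in PGR-A KO and 0.928, 0.941, 1.24 and 1.34 in WT. The highest ratio was in PGR-A KO replicate 3, which had the lowest Insr, and the 2 ratios under 1 were in WT replicates 1 and 2. The mean log2 ratio was 0.31 in PGR-A KO and 0.13 in WT, a difference of 0.18 (exact 2-sided permutation p = 0.286, adjusted 0.829 over the 3 ratios examined). The smallest p that 4 against 4 libraries allow is 0.0286.

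The 3 binding protein genes were the most abundant members beside Igf1. Igfbp5 (chromosome 1, 72857932 to 72874884, minus strand), the member with the highest mean, had 86.7, 101, 64.0 and 77.6 TPM in PGR-A KO and 72.5, 55.9, 88.9 and 81.3 TPM in WT. Both groups had a low library, replicate 3 in PGR-A KO and replicate 2 in WT, and the log2 difference was 0.14 (SE 0.17, 95% interval -0.24 to 0.52, limma adjusted p = 0.919). Igfbp2 (chromosome 1, 72824503 to 72852474, plus strand) had 59.0, 72.5, 76.3 and 57.2 TPM in PGR-A KO and 66.4, 66.04, 79.7 and 77.5 TPM in WT. PGR-A KO replicates 1 and 4 lay below all WT libraries in Igfbp2 and the other 2 inside their range. The log2 difference of Igfbp2 was -0.13 (SE 0.11, 95% interval -0.39 to 0.12, limma adjusted p = 0.882). Igfbp2 and Igfbp5 are neighbours on chromosome 1, on opposite strands.

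Igfbp4 (chromosome 11, 99041244 to 99054392, plus strand), a main substrate of PAPP-A, had 53.2, 67.2, 67.3 and 54.8 TPM in PGR-A KO and 61.3, 36.8, 65.5 and 63.9 TPM in WT. WT replicate 2 was far below the other 3 WT libraries, which lay among the PGR-A KO values. The log2 difference was 0.12 (SE 0.18, 95% interval -0.29 to 0.53, limma adjusted p = 0.940) and turned to -0.076 without WT replicate 2. In that library Aldh1a1, 1 of the 6 theca and interstitial markers, stood at 212 TPM, against 62.0 to 82.2 TPM in PGR-A KO and 58.1 to 77.5 TPM in the other WT libraries. Of the same list, Cyp17a1 (15.2 TPM) and Insl3 (3.22 TPM) were also highest in that library. The mean of the list was highest there too, 0.33 above its 8-library mean (log2 scale). So were the means of the endothelial and granulosa marker lists, at 0.45 and 0.37. Those of the stromal, smooth muscle, macrophage and surface epithelium lists were not highest there. Not all theca and interstitial markers moved together. Gli1, at 0.810 TPM and near the 1 TPM filter, was lower than in the other 7 libraries, and Ptch1 and Hsd3b6 were neither highest nor lowest. The 8 oocyte markers summed to 379 TPM in WT replicate 2, the lowest sum. Over replicates 1 to 4 they summed to 559, 768, 928 and 508 TPM in PGR-A KO and 561, 379, 715 and 696 TPM in WT. Igfbp4 ordered the 8 libraries in the same way, save that PGR-A KO replicates 1 and 4 changed places. Igfbp2 followed the order of the oocyte sums within each genotype. The part of these differences in the Igfbp4 and Igfbp2 values was not tested.

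All 7 Igfbp genes were measured, which places the 3 members within their family. Igfbp2, Igfbp4 and Igfbp5 together made up 73.1% ± 3.46 of summed Igfbp TPM in PGR-A KO and 71.0% ± 6.53 in WT (SD, n = 4 each). Igfbp7, whose product binds IGF weakly, followed with 49.3 ± 11.9 TPM in PGR-A KO and 53.1 ± 8.90 TPM in WT (SD, n = 4 each). Igfbp6 had 24.0 ± 4.68 TPM in PGR-A KO and 22.8 ± 1.99 TPM in WT, and Igfbp3 4.28 ± 0.986 TPM in PGR-A KO and 5.78 ± 2.07 TPM in WT (SD, n = 4 each). Igfbp1 stayed under 0.3 TPM in each library. The 3 members had the highest group means in both genotypes. In WT replicate 2, however, Igfbp7 was the highest of the family at 66.3 TPM, barely above Igfbp2 at 66.04 TPM. The means of Igfbp4 and Igfbp7 lay within their summed SDs of each other in both genotypes.

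**Figure D3:**
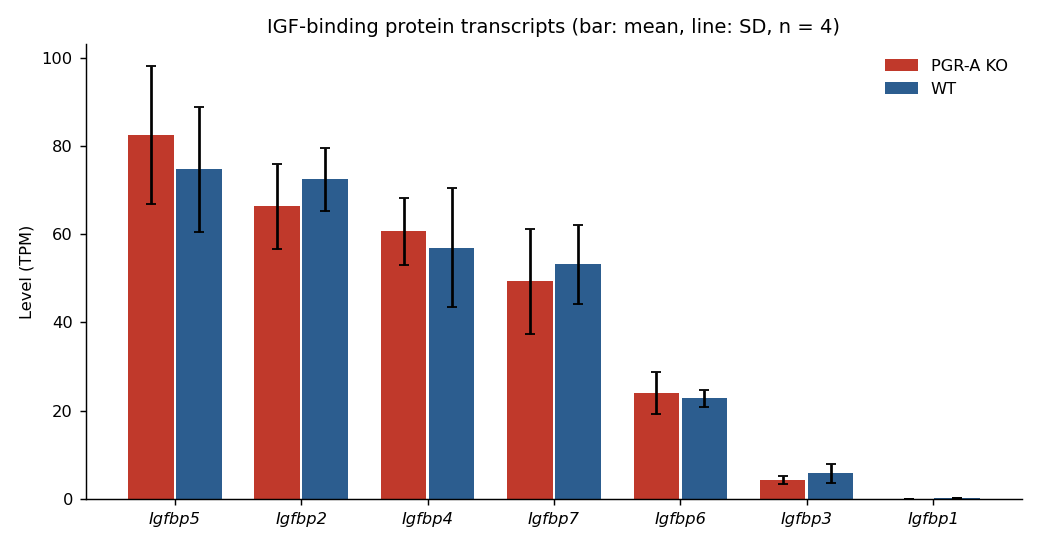
Level in TPM (y axis, from 0) of the 7 Igfbp genes in PGR-A KO (red) and WT (blue); bars are means and lines SDs (n = 4). Igfbp5, Igfbp2 and Igfbp4 have the highest means in both genotypes, though Igfbp4 and Igfbp7 lie within their SDs of each other, and the error bars of PGR-A KO and WT overlap for each of these 3.

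Igf1 transcripts were outnumbered by those of the 3 binding proteins. The ratio of Igf1 to summed Igfbp2, Igfbp4 and Igfbp5 TPM was 0.228, 0.241, 0.383 and 0.268 in PGR-A KO and 0.226, 0.332, 0.329 and 0.282 in WT. PGR-A KO replicate 3 had the highest ratio and WT replicate 1 the lowest, so the extremes lay in opposite groups. The mean log2 ratio was -1.87 in PGR-A KO and -1.79 in WT, a difference of -0.076 (exact permutation p = 0.743, adjusted 0.829 over the 3 ratios). With PGR-A KO replicate 3 plus WT replicate 1, a pair chosen for its values, set aside, the difference was -0.35 (exact permutation p = 0.1). That p is the smallest that 3 against 3 libraries allow and no measure of genotype.

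Pappa (chromosome 4, 65124174 to 65357509, plus strand), the gene of the IGFBP protease, varied widely between libraries of the same genotype, with a pooled within-group SD of 0.48 on the log2 scale, beside 0.47 for Irs1 and 0.16 or 0.17 for Igf1r and Igf2r. Pappa had 7.16, 7.44, 2.67 and 6.26 TPM in PGR-A KO and 8.21, 4.73, 4.91 and 4.18 TPM in WT. In PGR-A KO, replicates 1, 2 and 4, along with WT replicate 1, were above 6 TPM and the other 4 libraries below 5 TPM. These are also the libraries above and below the mean in the 12 ovulatory genes, and the part of that difference in the Pappa values was not tested. The mean was 5.88 ± 2.20 TPM in PGR-A KO and 5.51 ± 1.83 TPM in WT (SD, n = 4 each), a log2 difference of 0.045 (SE 0.28, 95% interval -0.59 to 0.68, limma adjusted p = 0.984). Without PGR-A KO replicate 3 the difference was 0.32, and without that library and WT replicate 1 it was 0.50 (limma adjusted p = 0.0337). Because that pair was chosen for its values, this last number is a description and no measure of genotype.

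The ratio of Pappa to Igfbp4 was 0.135, 0.111, 0.0397 and 0.114 in PGR-A KO and 0.134, 0.129, 0.0749 and 0.0655 in WT. PGR-A KO replicate 3 was lowest, WT replicates 3 and 4 came next, and the other 5 libraries lay close together. The log2 ratio averaged -3.46 in PGR-A KO and -3.38 in WT, a difference of -0.081 (exact permutation p = 0.829, also after adjustment over the 3 ratios). This difference turned to 0.32 without PGR-A KO replicate 3.

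**Figure D4:**
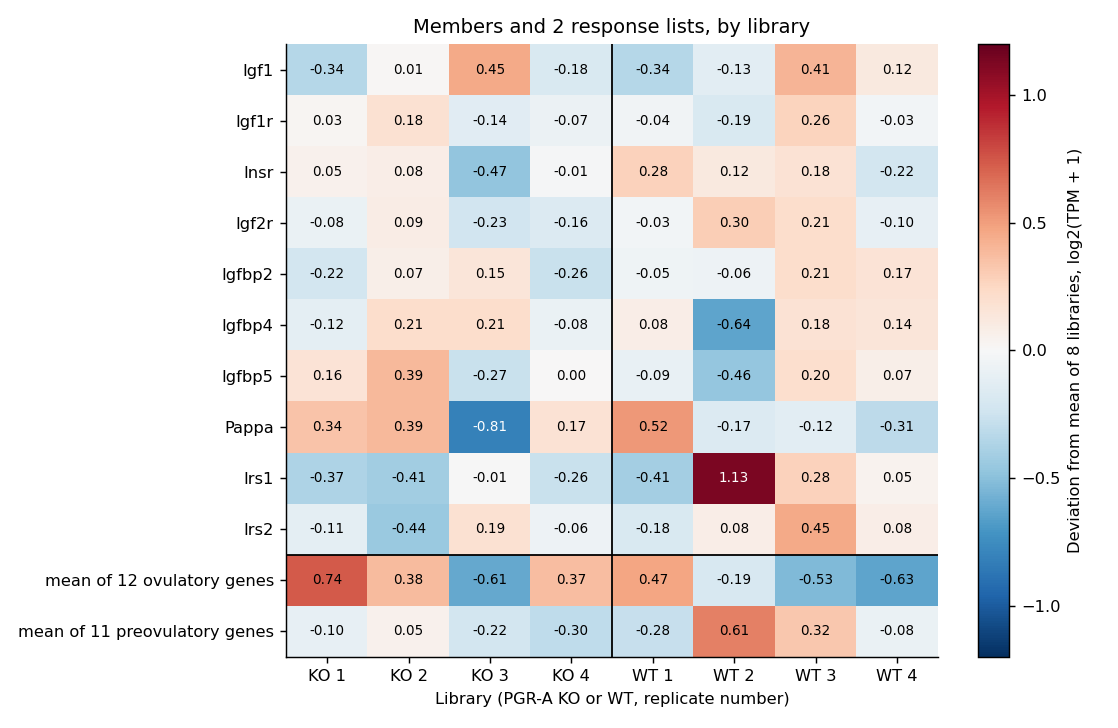
Deviation of log2(TPM + 1) from the mean of the 8 libraries (colour and printed value) for the 10 genes and for the means of 12 ovulatory and 11 preovulatory genes (rows), in the 4 PGR-A KO and 4 WT libraries (columns). Pappa is above its mean in the same 4 libraries as the ovulatory genes, and Irs1 has its largest value, 1.13, in WT replicate 2, where the preovulatory genes are also highest at 0.61.

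Irs1 (chromosome 1, 82233101 to 82291416, minus strand), a docking protein gene of the IGF1 and insulin receptors, had the largest difference among the members on the log2 scale. Irs1 had 6.82, 6.59, 9.06 and 7.42 TPM in PGR-A KO and 6.62, 21.2, 11.3 and 9.43 TPM in WT. WT replicates 2, 3 and 4 were above every PGR-A KO library, and WT replicate 1 was below all but PGR-A KO replicate 2. The mean was 7.47 ± 1.11 TPM in PGR-A KO and 12.1 ± 6.32 TPM in WT (SD, n = 4 each), a log2 difference of -0.53 (SE 0.28, 95% interval -1.16 to 0.11, limma adjusted p = 0.796). The difference was -0.24 without WT replicate 2, and -0.83 with PGR-A KO replicate 3 plus WT replicate 1 set aside, where limma's adjusted p was 0.0888. WT replicate 2 also had the highest mean of 11 FSH and preovulatory granulosa genes, 0.61 above their 8-library mean on the log2 scale. Their part in the Irs1 value was not tested.

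Irs2 (chromosome 8, 10984681 to 11008458, minus strand), the second docking protein gene, had 8.44, 6.53, 10.6 and 8.83 TPM in PGR-A KO and 8.01, 9.80, 13.0 and 9.80 TPM in WT. The lowest value was in PGR-A KO and the highest in WT, with the rest mixed. The log2 difference was -0.21 (SE 0.16, 95% interval -0.58 to 0.16, limma adjusted p = 0.861). Irs1 was below Irs2 in 6 of the 8 libraries and above it in PGR-A KO replicate 2 and WT replicate 2. The gene of a further family member, Irs4, stayed under the 1 TPM filter.

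**Figure D5:**
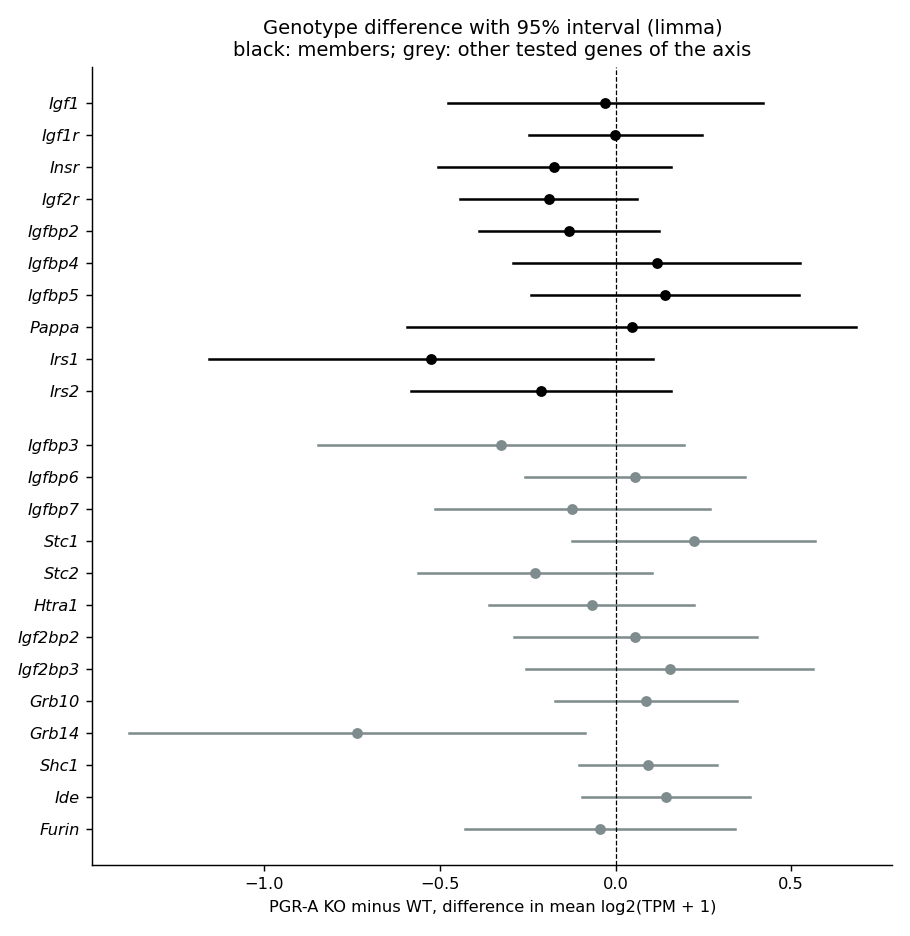
Difference in mean log2(TPM + 1), PGR-A KO minus WT (x axis), with its 95% interval from limma, for the 10 genes (black) and the 13 other tested genes of the axis (grey). The intervals of all 10 black genes include 0, and the widest of them are those of Irs1 and Pappa; among the grey genes that of Grb14, -1.39 to -0.088, does not.

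Ordered by mean over the 8 libraries, the members ran from Igfbp5 (78.6 ± 14.5 TPM) through Igfbp2 (69.3 ± 8.51), Igf1 (59.0 ± 13.3), Igfbp4 (58.8 ± 10.4), Igf1r (41.3 ± 4.61), Insr (35.6 ± 5.65), Igf2r (22.1 ± 3.02), Irs1 (9.80 ± 4.88) and Irs2 (9.38 ± 1.93) to Pappa (5.70 ± 1.88 TPM; SD, n = 8 libraries). The step from Igfbp4 to Igf1r, from Insr to Igf2r and from Igf2r to Irs1 exceeded the summed SDs of the neighbours and held in 8 of 8 libraries. The other neighbours did not differ beyond their spread. The ligand and binding proteins thus formed the upper group, the receptors the middle, and the substrates and protease the lower. The libraries did not move as a block over the members. PGR-A KO replicate 3 was highest of its group in Igf1, Igfbp2, Igfbp4, Irs1 and Irs2 and lowest in Igf1r, Igf2r, Igfbp5, Pappa and Insr. WT replicate 3 was the highest WT library in 6 of the 10 genes.

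Of 20 further genes of the IGF and insulin axis, 13 were tested and none passed. The mean in PGR-A KO was above that in WT for 7 and below it for 6, with 1 unadjusted limma p under 0.05. Igf2, the other IGF ligand, averaged 0.634 ± 0.314 TPM in PGR-A KO and 0.582 ± 0.102 TPM in WT (SD, n = 4 each), under the filter. Igfbp1, Igfals, Insrr, Pappa2, Igf2bp1 and Irs4 were also under it. Grb14, an adaptor that inhibits the insulin receptor, had the lowest p, with 313, 304, 585 and 383 TPM in PGR-A KO and 397, 996, 681 and 613 TPM in WT. WT replicates 2 to 4 of Grb14 exceeded all PGR-A KO libraries and WT replicate 1 fell among them, as in Irs1. Its log2 difference was -0.74 (SE 0.29, limma adjusted p = 0.783). It was -1.17 (limma adjusted p = 0.0144) with PGR-A KO replicate 3 plus WT replicate 1, a pair chosen for its values, set aside. In that fit, which does not measure genotype, 4.17% of all genes passed with lower levels in PGR-A KO. The PAPP-A inhibitor genes came next, Stc2 with 3.31 ± 0.385 TPM in PGR-A KO and 4.11 ± 1.04 TPM in WT, and Stc1 with 5.64 ± 0.936 TPM in PGR-A KO and 4.72 ± 0.967 TPM in WT (SD, n = 4 each). The protease gene Htra1 was the most abundant of the list, at 995 ± 109 TPM in PGR-A KO and 1048 ± 156 TPM in WT (SD, n = 4 each).

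Downstream of the receptors, none of 22 genes of PI3K, AKT and mTOR passed. Their means were split evenly, 11 above and 11 below WT, with a median log2 difference of -0.010. The lowest p were those of the PI3K regulatory subunits Pik3r3 (9.30 ± 0.853 TPM in PGR-A KO and 8.13 ± 0.687 TPM in WT) and Pik3r1 (110.4 ± 18.02 TPM in PGR-A KO and 129 ± 19.8 TPM in WT), and of the mTOR inhibitor Tsc2 (43.5 ± 6.16 TPM in PGR-A KO and 49.3 ± 7.75 TPM in WT; SD, n = 4 each). The kinase gene Akt1, the most abundant of the list by its mean over the 8 libraries though below Pik3r1 in WT, had 127 ± 12.05 TPM in PGR-A KO and 125 ± 10.6 TPM in WT (SD, n = 4 each). The split was 12 higher and 10 lower with quantile normalization and 17 higher and 5 lower with array weights. With single libraries left out it ran from 8 higher and 14 lower, when PGR-A KO replicate 2 or else WT replicate 4 was omitted, to 14 higher and 8 lower, when PGR-A KO replicate 3 or else WT replicate 1 was omitted. With PGR-A KO replicate 3 plus WT replicate 1, a pair chosen for its values, set aside it was 16 higher and 6 lower. Pik3r1 then passed with a log2 difference of -0.41 (limma adjusted p = 0.0489). In that fit, which does not measure genotype, 4.17% of all genes passed with lower levels in PGR-A KO.

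FOXO factors, which AKT keeps out of the nucleus, and textbook FOXO targets numbered 13 tested genes, of which 4 averaged more and 9 less in PGR-A KO than in WT. Among all tested genes 57.4% averaged less. The FOXO list was chosen with earlier results of these data known. None of the 13 passed, 4 had an unadjusted limma p under 0.05, beside 6.31% of all tested genes, and the median log2 difference was -0.12. Ccng2, a cyclin associated with cell cycle arrest, had 49.7, 47.5, 45.0 and 46.3 TPM in PGR-A KO and 53.3, 70.8, 61.01 and 52.8 TPM in WT. The groups did not overlap, as was so for 3.42% of all tested genes. The log2 difference of Ccng2 was -0.32 (SE 0.098, limma adjusted p = 0.721). Pdk4, a kinase that restrains pyruvate use, had 15.5 ± 3.75 TPM in PGR-A KO and 22.2 ± 3.68 TPM in WT (SD, n = 4 each). The sestrin gene Sesn3 had 14.1 ± 0.707 TPM in PGR-A KO and 18.1 ± 3.47 TPM in WT, and Txnip, the most abundant, 192 ± 38.5 TPM in PGR-A KO and 241 ± 49.6 TPM in WT (SD, n = 4 each). With the same pair of libraries, chosen for its values, set aside, 5 of these 13 genes passed with lower and 1 with higher levels in PGR-A KO, where 4.17% and 3.84% of all genes did.

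FSH and preovulatory granulosa genes had lower means in PGR-A KO in 10 of 11 cases, and ovulatory genes higher means in 12 of 12. In either list 0 passed, and 1 in each had an unadjusted limma p under 0.05. Over all tested genes 57.4% had lower means in PGR-A KO, and 6.31% had such a p. With single libraries left out, the counts fell as low as 9 of 11 and 11 of 12. The lists were chosen with earlier results of these data known. The median log2 difference was -0.22 for the preovulatory genes and -0.13 without WT replicate 2. It was 0.36 for the ovulatory genes, 0.81 with array weights, 0.19 without PGR-A KO replicate 1, 0.68 without PGR-A KO replicate 3 and 0.60 without WT replicate 1. Fst, which encodes follistatin, had 456 ± 36.1 TPM in PGR-A KO and 629 ± 138 TPM in WT, and Inhba, an activin subunit gene, 140 ± 27.6 TPM in PGR-A KO and 302 ± 223 TPM in WT (SD, n = 4 each). Foxl2, a granulosa transcription factor, had 43.0 ± 5.57 TPM in PGR-A KO and 50.9 ± 10.2 TPM in WT, and the inhibin gene Inha 3552 ± 515 TPM in PGR-A KO and 4063 ± 549 TPM in WT (SD, n = 4 each). The EGF-like factor genes Btc and Ereg had 54.7 ± 18.9 and 29.6 ± 10.4 TPM in PGR-A KO, against 26.6 ± 11.7 and 17.7 ± 8.39 TPM in WT (SD, n = 4 each). Ptx3, a cumulus matrix gene, had 106 ± 50.3 TPM in PGR-A KO and 62.7 ± 31.7 TPM in WT, and the protease gene Adamts1 439 ± 152 TPM in PGR-A KO and 350.1 ± 140.4 TPM in WT (SD, n = 4 each).

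Markers of other cells were present in every library, and no marker passed. Means in PGR-A KO were higher for 8 of 8 oocyte, 2 of 6 theca and interstitial, 3 of 6 stromal and 2 of 4 smooth muscle markers. They were higher for 2 of 6 endothelial, 1 of 7 macrophage, 0 of 6 surface epithelium and 2 of 8 granulosa markers. Over all tested genes 57.4% had lower means in PGR-A KO. The oocyte count was 1 of 8 with array weights, and 4 of 8 without PGR-A KO replicate 3 or without WT replicate 2. Oocyte markers summed to 508 to 928 TPM in PGR-A KO and 379 to 715 TPM in WT, the largest sums of these other cells. Such sums depend on which genes are listed, so they do not rank the cell types by amount. Theca and interstitial markers summed to 97.6 to 116 TPM in PGR-A KO and 87.4 to 251 TPM in WT. Macrophage markers summed to 52.0 to 109 TPM in PGR-A KO and 81.3 to 110 TPM in WT. Endothelial markers summed to 15.4 to 27.8 TPM in PGR-A KO and 20.3 to 41.0 TPM in WT, stromal markers to 88.8 to 127 TPM in PGR-A KO and 89.3 to 108 TPM in WT. Smooth muscle and pericyte markers summed to 58.6 to 88.3 TPM in PGR-A KO and 58.8 to 98.8 TPM in WT, and surface epithelium markers to 79.2 to 83.5 TPM in PGR-A KO and 74.8 to 109 TPM in WT. No marker was listed at 0 in every library, and 1 of the 5 smooth muscle and pericyte markers, Rgs5, was under the filter. The pair chosen for its values, PGR-A KO replicate 3 plus WT replicate 1, was also set aside, which gives no measure of genotype. Without it 5 of 7 macrophage markers and the theca gene Cyp17a1 passed with lower levels in PGR-A KO, beside 4.17% of all genes. In that fit 4 of 8 oocyte markers had higher means. In such bulk samples fewer cells of a type and less RNA per cell cannot be told apart, and the part of these cells in the IGF genes was not tested.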

How the data were processed

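Messenger RNA of granulosa cells was sequenced in 8 libraries, 4 PGR-A KO and 4 WT, grouped by sample title. Libraries were prepared with TruSeq stranded mRNA reagents and read paired-end on a NovaSeq, per the labels' protocols. The authors deposited TPM per gene symbol. Tools named in the submitters' processing notes, with no version or role, include Salmon, with mm10 as the build. Depth is unknown, so no counting interval is given, and no count test was run. The 10 members and all lists were chosen with earlier results of these data known.

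The 14472 genes that reached 1 TPM in 4 or more libraries were fitted on the log2(TPM + 1) scale by limma 3.58.1 (R 4.3.3), using its intensity trend and no covariate. Differences are PGR-A KO minus WT, with 95% intervals, and p-values are 2-sided and Benjamini-Hochberg adjusted over all tested genes at a threshold of 0.05. A log2(TPM + 1) difference understates the change of low genes. Ratios of TPM within a library were compared by an exact permutation test over 70 assignments. The steps were tested on simulated data. Named beside the members were the 3 genes of lowest p and the most abundant gene in each of 5 lists, and the 5 genes nearest to Igf1; 8 marker lists were summed. Positions are from GENCODE M21 on mm10, matched by symbol. Promoters are from RefSeq on GRCm38.p6.

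Alternatives were pseudocounts of 0.1 and 5, a filter at 5 TPM or none, TMM factors computed on the TPM, quantile normalization, limma without trend, with robust empirical Bayes or with array weights, a replicate block, each library left out, and PGR-A KO replicate 3 and WT replicate 1 left out together.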

Additional observations from a re-analysis of the deposited data

Results flagged for a closer look

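In 78 groups of 4 libraries (36 named genes and 3 ratios), 4 held a library far from the other 3, where chance flags about 3.9. Igfbp4 in WT replicate 2, at 36.8 TPM, was far below the other WT libraries (61.3 to 65.5 TPM). Txnip in PGR-A KO replicate 3, at 249.7 TPM, was far above the other PGR-A KO libraries (171 to 175 TPM). Btc in WT replicate 1, at 44.2 TPM, was far above the other WT libraries (20.2 to 21.3 TPM). Ptx3 in WT replicate 1, at 110.1 TPM, was far above the other WT libraries (43.6 to 50.6 TPM).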

How the results depend on the processing

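The count of members past the threshold was 0 in 18 of 19 alternatives and 1 with PGR-A KO replicate 3 plus WT replicate 1 left out. The 2 genes past the threshold overall became 3 and 1 at pseudocounts of 0.1 and 5, 16 with array weights, 1131 without those 2 libraries, and between 0 and 6 when single libraries were left out. The sign of some uncalled differences changed. Igf1r turned to 0.027 with TMM factors, 0.033 with quantile normalization and 0.029 without the 2 libraries. Igfbp4 turned to -0.058 with array weights. Insr turned to 0.00059 with array weights and 0.017 without the 2 libraries. Pappa over Igfbp4 turned to 0.48 without them. Without a change of sign, Pappa moved to 0.38 with array weights, and Igf1 to -0.31 with array weights and -0.30 without the 2 libraries. With a library left out, Igf1 ran from -0.19 to 0.10, Igf1r from -0.063 to 0.086, Igfbp4 from -0.076 to 0.20, Pappa from -0.077 to 0.32, Akt1 from -0.025 to 0.078 and Htra1 from -0.18 to 0.0020. Igf1 over summed Igfbps ran from -0.24 to 0.012 and Pappa over Igfbp4 from -0.27 to 0.32. The cause was not tested. The ratio of Igf1r to Insr kept its sign in 11 of 11 alternatives, as did Igf2r, Igfbp2, Igfbp5, Irs1 and Irs2 in 19 of 19, though single libraries moved several by over 1.5 times. With a library left out, Igfbp5 ran from 0.012 (WT replicate 2) to 0.26 (PGR-A KO replicate 3), Igfbp2 from -0.20 (PGR-A KO replicate 3) to -0.066 (PGR-A KO replicate 4), Irs2 from -0.31 (PGR-A KO replicate 3) to -0.098 (WT replicate 3), Irs1 from -0.75 (WT replicate 1) to -0.24 (WT replicate 2), Igf2r from -0.26 (WT replicate 4) to -0.12 (WT replicate 2) and Insr from -0.28 (WT replicate 4) to -0.046 (PGR-A KO replicate 3). The sample titles do not say whether same-numbered libraries are pairs, and the main fit treated them as unpaired. Deviations of same-numbered libraries correlated from -0.29 to 0.39, and not every library correlated best with its own number. This cannot decide pairing, because libraries with different numbers also correlated, PGR-A KO replicate 3 and WT replicate 4 at 0.43. The replicate block left 2 genes and 0 members past the threshold, the lowest limma adjusted p of a member being 0.556. In this balanced design the block cannot move a difference, so the ratios stay at -0.076, -0.081 and 0.18. Depth is unknown, so its limit on low genes such as Igf2 cannot be given.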

Other observations

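Igfbp1, named after its values were seen, was under the filter but did not overlap between the genotypes. Igfbp1 had 0.0263, 0.0792, 0.0683 and 0.0770 TPM in PGR-A KO, against 0.131, 0.294, 0.137 and 0.171 TPM in WT. Every PGR-A KO library was below every WT library (exact permutation p = 0.0286, the smallest 4 against 4 libraries allow), and 3.42% of the tested genes also did not overlap. In the limma fit without the filter its adjusted p was 0.866. At such levels, with unknown depth, the number of reads behind these values is unknown.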
